A study of Mus musculus with 9 samples.

Results

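Cortical thymic epithelial cells (cTEC) with a lower and a higher dose of Foxn1 were compared across all genes of a table of read counts. Both groups came from nude mice, whose own Foxn1 alleles give no working protein, and in both the only functional FOXN1 was FLAG-tagged and came from a bacterial artificial chromosome (BAC) transgene. Mice of the low-dose group were heterozygous for this transgene and mice of the high-dose group were homozygous. The comparison took the 3 libraries of each group, 6 of the 20 RNA libraries in the table, because their column names carry the titles of these groups. The sort kept cells with EpCAM, MHC class II and Ly51 on their surface, and left out those with CD45 or with binding of the lectin UEA1. Medullary cells (mTEC) of the same genotypes, 2 libraries each, served as a second cell type. The sources used here do not give the copy number or insertion site of the transgene, or the age of the mice. Nothing in the labels says that the libraries of a group came from separate mice, so p-values measure only the spread between these libraries, which may be technical.

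FOXN1 is the forkhead transcription factor that thymic epithelium needs to form and to stay functional. cTEC draw progenitors into the thymus with chemokines, commit them to the T lineage by showing them the Notch ligand DLL4, and positively select thymocytes on peptides cut by proteases that are particular to these cells, among them the thymoproteasome and cathepsin L. The core of the DNA sequence that FOXN1 binds is GACGC.

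Each of the 6 libraries held 21027043 to 22061738 counts, and 19818 to 20251 genes had at least 1 count. The 50 most counted genes took 8.94 to 9.36% of the counts in heterozygous and 11.1 to 11.4% in homozygous cTEC. Mitochondrially encoded genes took 1.82 to 2.32%. The chi-square per gene between pairs of libraries was 6.72 to 14.2 in heterozygous and 3.93 to 5.18 in homozygous cTEC, and heterozygous library 2 stood apart for several genes given below. Xist and the Y-linked Ddx3y were both counted in all 6 libraries, Xist at 216 to 774 CPM (counts of a gene scaled to the depth of its library) and Ddx3y at 40.6 to 70.7 CPM. The summed CPM of 9 defining cTEC markers was 6925 to 7213 in heterozygous and 19667 to 20734 in homozygous libraries. That of 8 mTEC markers was 749 to 928 and 182 to 205, with Aire at 1.42 ± 0.191 and 2.25 ± 0.831 CPM (SD, n = 3 each). In sorted bulk cells, fewer cells of a type and less RNA per cell cannot be told apart.

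Foxn1 itself was counted at 1143.5, 1209.5 and 1143.9 CPM in the heterozygous and at 1483.6, 1298.6 and 1311.3 CPM in the homozygous libraries. The groups did not overlap, and the fitted difference was small (log2 fold change, heterozygous over homozygous, -0.36 ± 0.06 SE, adjusted p = 0.000445). The count includes any transcript of the nude alleles, so it does not measure the transgene alone.

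Next to that difference, 4024 of 19222 tested genes were higher in heterozygous cTEC (20.9%) and 4201 were lower (21.9%), 42.8% in all, by edgeR's quasi-likelihood test at a Benjamini-Hochberg adjusted p under 0.05. For 7324 of these 8225 genes the libraries of the groups did not overlap. Calling favours genes whose groups separate, so this count does not check the calls. The share over all tested genes was not computed. Many differences were small: 4183 of the called genes differed by less than 1.5-fold. At least 2-fold differences were found for 1570 higher genes (8.17% of those tested) and 1006 lower genes (5.23%), and at least 16-fold differences for 121 and 68. Abundant genes more often fell than rose, with 41.9% lower and 20.7% higher among those at 200 CPM or more in the higher group, whereas at 2 to 10 CPM 18.4% were lower and 36.7% higher. Without scaling factors between libraries the split moved to 5931 higher and 2859 lower genes, from 48.9% to 67.5% higher among the called. That scaling shifted the median of all genes by 0.11 log2, against 0 in the main fit, so small differences depend on the scaling. The median of cytosolic ribosomal protein genes moved from 0.16 to 0.29. Counts of calls at larger sizes moved as well: genes of respiratory complex I (median -0.32) fell in 29 of 37 cases in the main fit and in 17 without scaling factors.

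**Figure D1:**
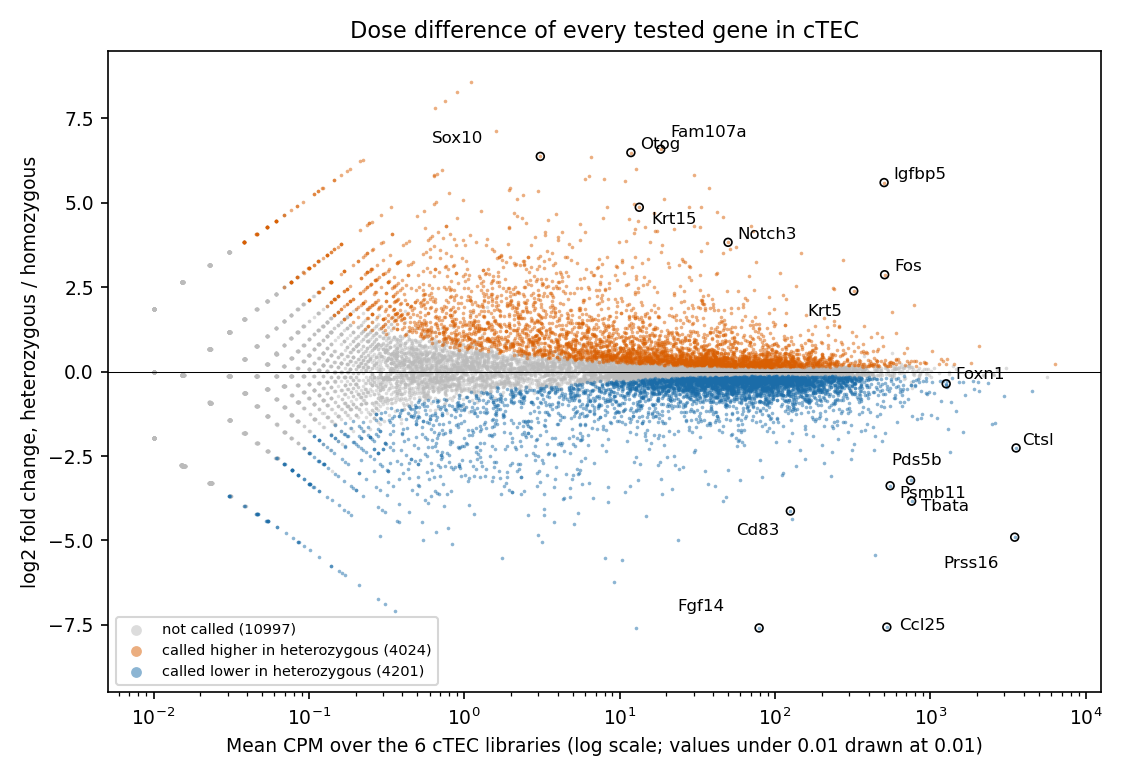
Fitted log2 fold change (heterozygous over homozygous cTEC) of each of the 19222 tested genes against its mean CPM over the 6 libraries, on a log axis. The 4024 genes called higher lie above 0 and the 4201 called lower lie below 0. Ccl25 and Fgf14 lie near -7.6 at high CPM, and Foxn1 lies close to 0 at -0.36.

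The genes through which cTEC attract and instruct progenitors were lower at the low dose. Ccl25, the chemokine that draws CCR9-bearing progenitors, was at 5.67, 6.35 and 6.10 CPM in the heterozygous and at 1039.6, 878 and 1213.5 CPM in the homozygous libraries. This was a 189-fold fall (-7.57 ± 0.16, adjusted p = 2.47e-12). Dll4 was at 115, 121 and 106 against 538, 507 and 505 CPM (-2.31 ± 0.08), and Cxcl12, which retains progenitors in the cortex, at 755, 882 and 725 against 2497, 2388 and 2524 CPM (-1.78 ± 0.12). Each heterozygous library lay below each homozygous one for all 3 genes. Of the 9 tested members of a thymocyte attraction list, 7 fell and 1 rose (median -0.51). Without heterozygous library 1 the median was -1.60, and without heterozygous library 3, homozygous library 1 or homozygous library 3 the number of falls was 5. Vcam1, an adhesion molecule for progenitors, fell by 1.54 and Cxcl10, an interferon-induced chemokine, by 1.23. Ccl21a, a chemokine better known from the medulla, was the member that rose (107 against 47.9 CPM on average, 1.03).

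Thymocyte growth factors divided, with 8 of 14 lower and 6 higher. Kitl, the ligand of KIT, was at 114, 112 and 134 against 258, 266 and 291 CPM (-1.31 ± 0.08), and Flt3l, the ligand of FLT3, at 15.5, 16.4 and 17.4 against 50.6, 32.9 and 38.9 CPM (-1.45 ± 0.14). Il7, the cytokine that thymocytes need to survive and expand, differed little (-0.22), as did Tgfb1 (-0.36). Among the rises, Il33, an alarmin, went from 5.42, 4.94 and 5.33 CPM in homozygous to 56.4, 34.3 and 60.5 CPM in heterozygous libraries (3.14 ± 0.19).

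Proteases and surface molecules of positive selection fell as well. Psmb11, the catalytic subunit beta5t of the thymoproteasome, was at 107, 101 and 107 CPM in heterozygous and 1053, 961 and 978 CPM in homozygous libraries (-3.38 ± 0.18). Prss16, a serine protease of the thymic cortex, was at 231, 319 and 191 against 6773, 6330 and 7107 CPM (-4.90 ± 0.22). Ctsl, cathepsin L, was at 1361, 1468 and 1153 against 5672, 5533 and 6199 CPM (-2.26 ± 0.09), and Cd83, which stabilises MHC class II at the surface, at 12.6, 13.3 and 18.6 against 223, 210 and 276 CPM (-4.13 ± 0.15). All 4 genes separated the groups with no overlap. In a list of 19 tested cTEC identity genes, which shares members with the attraction list, 17 fell and 1 rose (median -1.54). The structural keratins of these cells were among them: Krt8 was at 1445.8, 1518.8 and 1357.5 against 3758.6, 3725.0 and 3859.6 CPM (-1.53 ± 0.09), and Krt18 behaved alike (-1.54). Ly75, the endocytic receptor DEC-205, fell by 1.40 and Cd274, the checkpoint ligand PD-L1, by 1.39. Ackr4, a scavenging receptor for chemokines, rose by 0.34.

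Outside these lists, Slc22a7, an organic anion transporter, was nearly absent at the low dose, at 0.228, 0.0927 and 0.0918 against 26.8, 23.8 and 25.9 CPM (-7.61 ± 0.22). Fgf14, which encodes an intracellular partner of sodium channels, was at 0.777, 0.649 and 1.24 against 156, 156 and 160 CPM (-7.59 ± 0.16), and Crip3, a LIM-domain gene of the thymus, at 22.02, 20.995 and 22.03 against 962, 774 and 833 CPM (-5.44 ± 0.10). Tbata, known from thymic stroma, was at 114, 118 and 91.8 against 1548, 1290 and 1387 CPM (-3.84 ± 0.12). Among the other large falls were Itgbl1 (-6.22), Cdh8, a cadherin (-5.58), Fxyd2, a regulator of the sodium pump (-5.52), Ppp1r27 (-4.98), Neu2, a sialidase (-4.51), Isg20, an exonuclease (-4.36) and Cpeb1, a regulator of mRNA translation (-4.26). Pds5b, a regulator of the cohesin ring, had one of the largest differences in CPM, at 146, 168 and 158 against 1327, 1247 and 1430 CPM (-3.22 ± 0.08). In mTEC its mean was 77.0 CPM at the low and 80.5 CPM at the high dose. Fabp5, a fatty acid carrier, fell by 2.38 and Dsp, the desmosomal plaque protein desmoplakin, by 0.73.

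**Figure D2:**
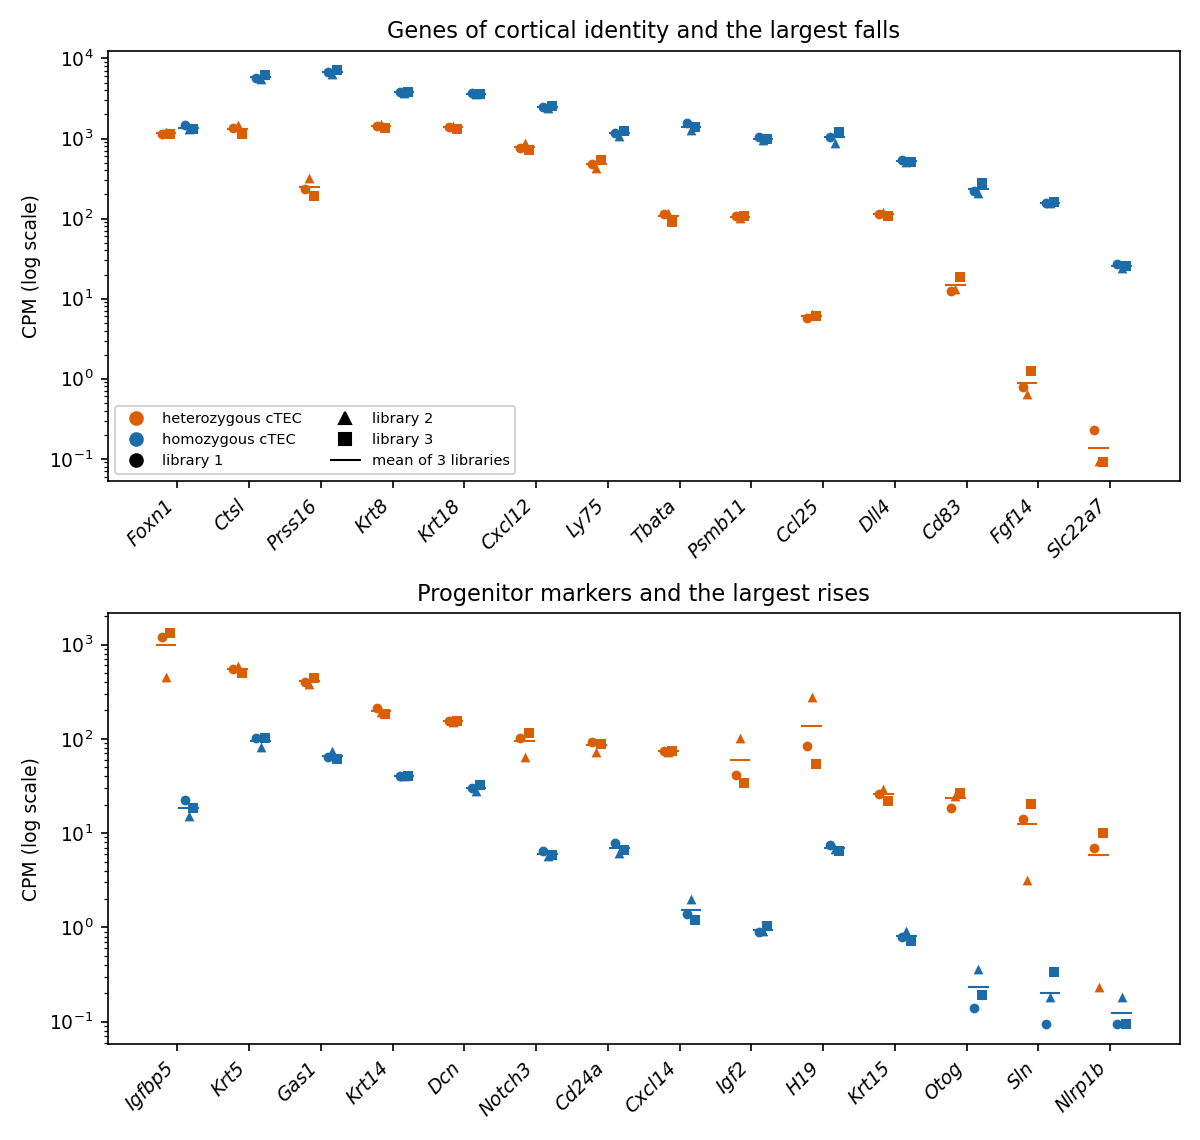
CPM of 14 genes of cTEC identity or large fall (top) and 14 progenitor markers or large rises (bottom) in each of the 3 heterozygous and 3 homozygous cTEC libraries, on log axes, with a line at each mean. Groups separate for every gene shown, which for the largest rises and falls by fold was a condition of their choice. Heterozygous library 2 lies apart from libraries 1 and 3 for Igfbp5, Igf2, H19, Sln and Nlrp1b.

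Promoters of the attraction genes and of Psmb11 are shown because 3 of these 4 hold GACGC, on either strand, in the window from 250 bases before to 50 after the start of the gene (RefSeq, GRCm38.p6). Capitals mark GACGC or its reverse complement GCGTC, and every sequence runs 5′ to 3′ on the strand of the gene. Psmb11 (chr14:54625060-54625359, plus strand) has matches that begin at positions -239 and -62 from the start, Ccl25 (chr8:4324960-4325259, plus strand) at -56 and 13, and Cxcl12 (chr6:117168285-117168584, plus strand) at -62. Dll4 (chr2:119325534-119325833, plus strand) has no match in this window.
Psmb11: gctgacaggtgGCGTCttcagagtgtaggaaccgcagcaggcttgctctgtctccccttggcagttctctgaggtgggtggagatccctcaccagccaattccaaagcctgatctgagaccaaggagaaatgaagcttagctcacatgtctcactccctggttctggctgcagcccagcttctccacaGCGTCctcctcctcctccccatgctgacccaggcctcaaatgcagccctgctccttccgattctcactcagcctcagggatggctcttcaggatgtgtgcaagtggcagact
Ccl25: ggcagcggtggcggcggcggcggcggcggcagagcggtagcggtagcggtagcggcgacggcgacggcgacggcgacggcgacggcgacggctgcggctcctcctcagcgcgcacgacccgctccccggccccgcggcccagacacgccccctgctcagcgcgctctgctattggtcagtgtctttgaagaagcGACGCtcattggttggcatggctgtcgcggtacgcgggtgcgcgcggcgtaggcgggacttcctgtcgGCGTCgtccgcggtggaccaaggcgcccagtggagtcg
Cxcl12: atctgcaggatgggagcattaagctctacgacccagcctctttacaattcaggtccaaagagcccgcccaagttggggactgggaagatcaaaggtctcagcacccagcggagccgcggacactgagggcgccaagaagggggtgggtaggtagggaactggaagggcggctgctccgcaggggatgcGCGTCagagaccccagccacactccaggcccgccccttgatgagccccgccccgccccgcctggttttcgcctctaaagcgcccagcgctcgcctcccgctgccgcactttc
Dll4: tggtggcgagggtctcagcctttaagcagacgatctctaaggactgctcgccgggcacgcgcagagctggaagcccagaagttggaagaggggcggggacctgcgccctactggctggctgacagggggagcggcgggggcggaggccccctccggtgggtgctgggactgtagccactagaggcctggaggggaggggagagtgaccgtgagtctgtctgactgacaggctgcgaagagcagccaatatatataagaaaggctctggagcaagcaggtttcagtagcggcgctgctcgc

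Over all genes, GACGC was present in 47.9% of 3261 promoters of lower genes, 38.3% of 3027 promoters of higher genes and 37.9% of 7913 promoters of genes that were not called. Its share was 40.3% in the 14201 promoters of tested genes and 33.1% in all 18747 matched promoters, which include untested genes. Among genes that changed at least 2-fold the shares were close, 33.5% of 717 for lower and 32.3% of 1085 for higher genes, and among those that changed at least 4-fold the order turned, with 23.2% of 293 lower and 29.5% of 481 higher genes. For comparison, the AP-1 motif TGANTCA was present in 5.37%, 4.59% and 6.87% of lower, higher and not called genes, and the antioxidant response motif TGACNNNGC in 15.5%, 14.3% and 13.8%. Their shares were 6.04% and 14.3% in promoters of tested genes, and 7.23% and 13.2% in all promoters. The number of CG dinucleotides in the window also differed, with medians of 20, 19 and 16 for lower, higher and not called genes and 10 for genes at least 2-fold lower. Up to 11 CG dinucleotides, GACGC was in 15.6% of lower, 14.3% of higher and 12.7% of not called genes. From there up to 24 the shares were 49.0%, 39.9% and 45.1%, and above 24 they were 68.5%, 58.7% and 65.5%. Only 73.9% of the tested genes had a promoter in the table, which limits all of these shares. The part of CG dinucleotides in the shares was not tested.

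The proteasome, which cuts the peptides shown on MHC class I, was lower at the low dose almost throughout. Of 48 tested genes for its subunits, regulators and assembly factors, 43 fell and 3 rose (median -0.70), against 21.9% and 20.9% of all genes. Psmb10, a catalytic subunit of the immunoproteasome, was at 133, 117 and 113 against 367, 356 and 336 CPM (-1.68 ± 0.08). Psmb4, a structural ring subunit of every proteasome, was at 152, 158 and 152 against 402, 394 and 382 CPM (-1.48 ± 0.07). Psmb5, Psmb6 and Psmb7, the catalytic subunits of the constitutive proteasome, fell by 0.71, 0.69 and 0.61. The genes that rose were Psmb8, the immunoproteasome counterpart of Psmb5 and Psmb11, at 42.7, 21.1 and 38.2 against 17.4, 15.1 and 15.7 CPM (0.95 ± 0.19), and the activators Psme1 (0.93) and Psme3 (0.26).

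**Figure D3:**
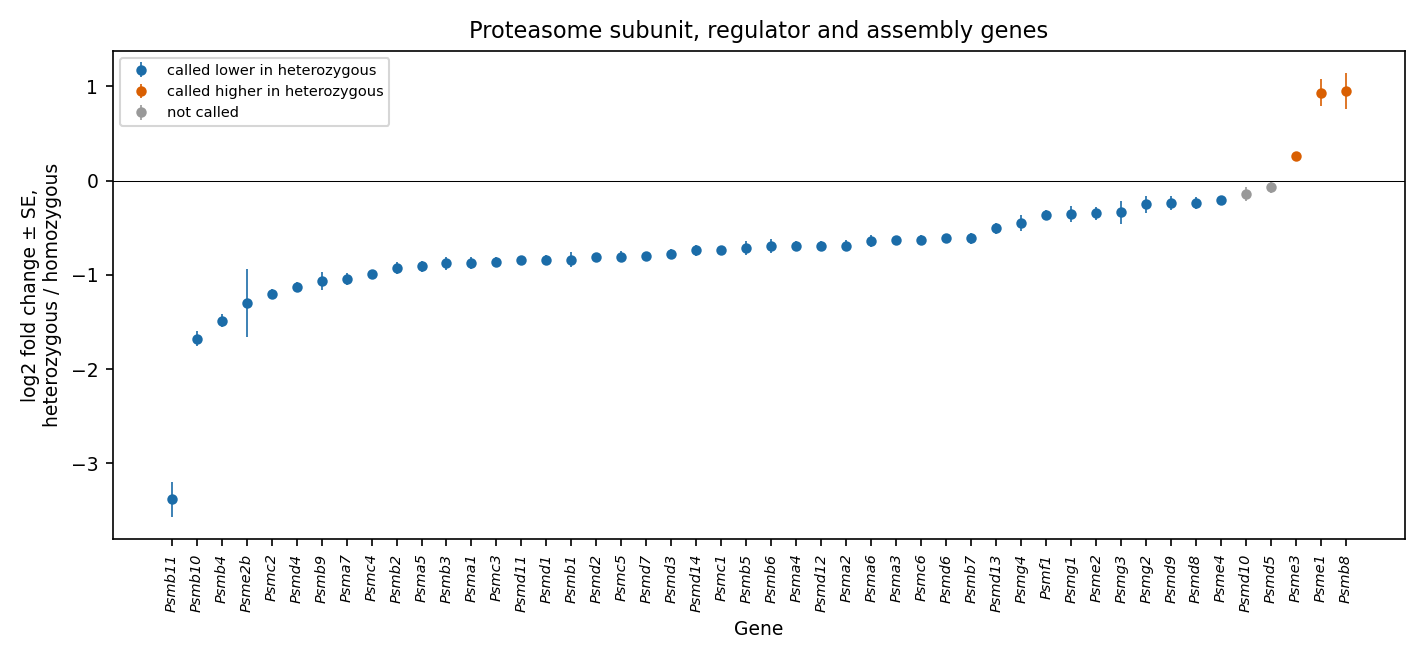
Fitted log2 fold change (heterozygous over homozygous cTEC) with its standard error for the 48 tested proteasome subunit, regulator and assembly genes, ordered by size. Of these, 43 were called lower and 3, Psmb8, Psme1 and Psme3, higher, and Psmb11 lies lowest at -3.38.

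Antigen presentation genes followed in smaller steps. In the class I loading list 12 of 18 fell and 2 rose (median -0.50), the latter again Psmb8 and Psme1. B2m, the light chain of class I, was at 415, 260 and 348 against 620, 578 and 688 CPM (-1.01 ± 0.14), and the peptide transporter genes Tap1 and Tap2 fell by 0.50 and 0.58. In the class II list 16 of 23 fell and 5 rose (median -0.32). Leaving out heterozygous library 1 left 3 of those 5 rises. Cd74, the invariant chain, was at 3967.6, 3682.5 and 3747.2 against 5317.9, 5077.1 and 5119.5 CPM (-0.58 ± 0.07), and H2-Aa, a class II chain, fell by 0.51. Ctsz and Ctsh, lysosomal cathepsins, rose by 1.32 and 1.00.

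Genes of the NF-kB pathway, through which TNF family receptors act in thymic epithelium, fell in 17 of 26 cases and rose in 4 (median -0.31). That number of rises was 2 without heterozygous library 1, homozygous library 2 or homozygous library 3. Cd40, a receptor for signals from T cells, was at 7.72, 9.55 and 5.78 against 26.8, 24.98 and 30.9 CPM (-1.97 ± 0.14). Of genes known from the non-canonical branch, the kinase gene Map3k14 fell by 0.94, Nfkb2 by 0.83, Relb by 0.81 and the receptor gene Ltbr by 0.50, while Chuk, Traf2 and Tnfrsf11a were not called. Canonical Nfkb1 and Rela fell by 0.22 and 0.19, and Traf1, an adaptor, rose by 1.51.

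Nuclear-encoded genes of energy metabolism fell in small steps. Complex I genes fell in 29 of 37 cases with no rise (median -0.32), ATP synthase genes in 14 of 17 with no rise (-0.29), and mitochondrial ribosomal protein genes in 36 of 75 with 1 rise (-0.20). These counts depend on the scaling: without scaling factors the falls numbered 17, 7 and 15. Glycolysis genes fell in 12 of 22 cases and rose in 2 (median -0.34). Aldoa, the common aldolase, was at 233, 227 and 189 against 492, 461 and 473 CPM (-1.27 ± 0.08), and Gapdh fell by 0.57. The related gene Aldoc rose, as given with the neighbours of Foxn1 below.

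Progenitor and precursor markers rose at the low dose, with 17 of 23 higher and 4 lower (median 1.65). Krt5, a keratin of basal and medullary epithelium, was at 555, 591 and 496 CPM in heterozygous and 102, 82.1 and 102 CPM in homozygous libraries (2.39 ± 0.10), and Krt14, its partner, at 213, 194 and 183 against 40.3, 40.3 and 39.9 CPM (2.16). Krt15, a keratin of epithelial stem cells, was at 26.1, 29.7 and 22.1 against 0.795, 0.907 and 0.713 CPM (4.87), and Krt19 at 32.0, 38.4 and 25.8 against 1.82, 1.95 and 1.14 CPM (4.15). None of these keratins overlapped between the groups. Cd24a, a surface glycoprotein of immature cells, was at 93.5, 73.2 and 89.2 against 7.81, 6.21 and 6.61 CPM (3.50 ± 0.13). Lgr5 and Lgr6, receptors of stem cells, rose by 2.82 and 4.004 from under 1 CPM. Krt5, Krt14, Cldn4 and Ccl21a are also markers of mTEC, and all 4 rose, while the mTEC markers Aire, Fezf2 and Cd80 fell by 0.80, 1.32 and 1.84. The number of falls among the mTEC markers was 1 without homozygous library 2, and 2 without homozygous library 1 or any one of the heterozygous libraries. In mTEC, Krt5 stood at 1834.7 CPM at the low and 2125.9 CPM at the high dose, far above either cTEC group. The part of mTEC in the cTEC values was not tested.

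Igfbp5, an extracellular binder of insulin-like growth factors, had the largest rise in CPM among the progenitor markers, at 1196, 449 and 1323 against 22.3, 15.4 and 18.5 CPM (5.60 ± 0.35, adjusted p = 3.49e-08). Heterozygous library 2 was lowest here. Igfbp4 was at 444, 321 and 474 against 67.7, 72.5 and 68.2 CPM (2.44). The axis as a whole, these genes included, divided: 8 of 19 tested genes rose and 4 fell (median 0.08, or -0.00076 without heterozygous library 2). These shares, 42.1% and 21.1%, stand against 20.9% and 21.9% of all tested genes. The receptor gene Igf1r fell by 0.81.

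Igf2, the fetal growth factor, is one of several imprinted genes that rose, and heterozygous library 2 was highest for these. It was at 41.3, 101 and 34.2 against 0.888, 0.907 and 1.05 CPM (5.81 ± 0.47). H19, the imprinted RNA next to Igf2, was at 84.1, 275 and 53.6 against 7.48, 6.84 and 6.42 CPM (4.17 ± 0.52), and Meg3, the maternal RNA of the Dlk1 cluster, at 16.5, 68.8 and 20.2 against 2.29, 2.18 and 2.62 CPM (3.75 ± 0.57). Mest was at 65.5, 163 and 60.8 against 6.31, 8.16 and 6.90 CPM (3.62 ± 0.34). In the list of 27 tested imprinted genes 14 rose and 2 fell (median 0.70). Without heterozygous library 2, 12 rose and 4 fell (median 0.36), and Igf2, H19, Meg3 and Mest were at 5.19, 3.19, 2.83 and 3.02 log2. Cdkn1c, a cell cycle inhibitor, and Plagl1, a growth-regulating zinc finger factor, rose by 1.38 and 1.46.

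Developmental regulators rose in part. Of 23 tested pharyngeal pouch and patterning factors, 13 rose and 2 fell (median 0.49), and the falls were Pax1 (-0.65) and Fgfr2 (-0.47). Sim1, a bHLH-PAS transcription factor, was at 13.4, 15.3 and 17.8 against 0.421, 0.181 and 0.190 CPM (5.72 ± 0.24). Foxi3, a forkhead factor of the pharyngeal ectoderm, was at 1.64, 1.205 and 2.34 against 0.0467, 0.0453 and 0.0951 CPM (4.55 ± 0.46), and Gata3 rose by 2.54. Eya1, Eya4, Meis1 and Hoxa3, which act with the pouch factors, rose by 0.43 to 0.77. Among 32 tested Hox genes 8 rose, a share near the 20.9% of all genes, and none fell (median 0). The rises were led by Hoxc4 at 6.67, 5.14 and 8.21 against 0.234, 0.227 and 0.333 CPM (4.50) and Hoxc5 (4.68). Homeobox genes of the Irx, Dlx and sine oculis groups rose in 8 of 16 cases, Irx3 by 4.12. Sox genes rose in 9 of 18 with 1 fall. Sox10, a factor of neural crest and of the otic vesicle, was at 5.71, 5.84 and 6.79 against 0.0467, 0.0907 and 0.0476 CPM (6.37 ± 0.30).

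Several genes of the inner ear and its placode were among the largest rises. Otog, which encodes otogelin of the acellular membranes of the ear, was at 18.6, 24.7 and 26.9 against 0.140, 0.363 and 0.190 CPM (6.49 ± 0.25). Epyc, a small proteoglycan, was at 9.23, 11.3 and 14.9 against 0.187, 0.181 and 0.238 CPM (5.70). Gjb2 and Gjb6, the connexins of the cochlea, rose by 1.84 and 2.77. In the list of 19 tested otic and placodal genes 10 rose and 1 fell (median 1.27), and several members were under 1 CPM in both groups. The summed CPM of the list was 152 to 225 in heterozygous and 54.8 to 59.7 in homozygous libraries.

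Further large rises were Fam107a (6.58), Abca8a, a lipid transporter (6.35), Kif19a, a kinesin (5.99), Cxcl14, a chemokine of epithelia, at 73.6, 72.2 and 74.5 against 1.40, 1.99 and 1.19 CPM (5.44 ± 0.11), Shisa7 (5.22) and Cldn9, a claudin (5.10). Sln, a regulator of the muscle calcium pump, was at 14.2, 3.15 and 20.3 against 0.0935, 0.181 and 0.333 CPM (5.79 ± 0.77). Nlrp1b, an inflammasome sensor, was at 7.04, 0.232 and 10.1 against 0.0935, 0.181 and 0.0951 CPM (5.36 ± 1.099), so that in heterozygous library 2 it was close to the homozygous level. Without that library the 2 genes were at 6.25 and 5.93 log2.

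Genes of the extracellular matrix rose, with 32 of 47 tested fibrillar and matricellular genes higher and 6 lower (median 1.16). Dcn, the proteoglycan decorin, was at 155, 152 and 153 against 30.4, 28.1 and 32.1 CPM (2.21 ± 0.07). Lox, which crosslinks collagen, was at 73.6, 61.2 and 54.9 against 3.13, 2.81 and 3.00 CPM (4.27 ± 0.16), and Col14a1 at 38.0, 53.0 and 37.4 against 1.59, 2.36 and 2.28 CPM (4.23 ± 0.17). Fbln2 and Eln, genes of elastic fibres, rose by 2.91 and 1.75. Tnc, tenascin C, fell, at 781, 1572 and 532 against 1833, 2010 and 2063 CPM (-1.17 ± 0.27), with heterozygous library 2 nearest to the homozygous libraries. Without that library its fall was 1.71. These genes are also products of fibroblasts. The summed CPM of 10 fibroblast markers was 357 to 377 in heterozygous and 117 to 128 in homozygous libraries, with 5 of the 10 higher (Dcn, Lum, Col1a2, Fbn1 and Pdgfra) and Thy1 lower (-2.92). The 4 others were not called. Of these, Col1a1 was at 0.731, 0.463 and 0.367 against 0.888, 0.680 and 0.238 CPM, and Col3a1 at 5.202 ± 2.33 against 2.42 ± 0.380 CPM. Pdgfrb and Twist1, and also Pdgfra, which was called higher, were under 1 CPM on average in both groups. The part of fibroblasts in the result was not tested. In the basement membrane list 13 of 33 rose and 6 fell (median 0.13). Without homozygous library 2, 3 fell, and without heterozygous library 2 the median was -0.00042. Col7a1, the anchoring fibril collagen, rose by 2.15, and Lamb3, a laminin chain of epithelia, fell by 1.17.

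Signalling genes moved in both directions within a pathway. Of 17 tested Notch genes 9 rose and 5 fell (median 0.65). Against the fall of the ligand Dll4, the receptor gene Notch3 was at 102, 64.1 and 116 against 6.50, 5.67 and 5.90 CPM (3.83 ± 0.19), Notch1 at 347, 243 and 363 against 101, 94.7 and 94.2 CPM (1.58 ± 0.12), and the ligand gene Jag1 at 117, 93.2 and 129 against 40.0, 36.6 and 40.3 CPM (1.40 ± 0.11). The target genes Heyl, Hey2 and Hes1 rose by 1.496, 1.43 and 0.91, and Hey1 fell by 0.54. In the hedgehog pathway the coreceptor genes Gas1 (398, 381 and 444 against 63.6, 74.0 and 60.7 CPM, 2.49 ± 0.09), Cdon (1.33) and Boc (0.56) rose, while the ligand genes Shh, Ihh and Dhh were under 0.3 CPM in both groups. In all, 5 of 14 tested hedgehog genes rose and 2 fell.

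Among secreted signals, Wnt5a was at 41.2, 55.4 and 44.4 against 3.97, 4.49 and 4.76 CPM (3.28 ± 0.14) and Bmp4, a thymic growth signal of the BMP family, at 30.1, 19.2 and 34.2 against 2.71, 2.58 and 2.19 CPM (3.34 ± 0.21). WNT ligand genes rose in 7 of 18 cases and fell in 2, and so did 18 tested BMP and GDF genes. Fst, which binds and blocks activins, rose by 3.09. Of 20 tested retinoid genes 5 rose and 3 fell, 25% and 15%, shares near the 20.9% and 21.9% of all tested genes. Without homozygous library 1 or 3, 3 rises were left. Cyp26b1, which degrades retinoic acid, was at 0.228, 0.371 and 0.413 against 2.90, 3.67 and 4.52 CPM (-3.57 ± 0.30).

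Families of cell contact genes were also counted. Of 22 tested genes of the protocadherin beta cluster, a family chosen after these values had been seen, 20 rose and none fell (median 1.12). Pcdhb16 was at 21.2, 19.98 and 20.97 against 7.90, 6.62 and 7.75 CPM (1.35 ± 0.10). Members of this cluster are close copies, so reads may be shared between them, and their values are uncertain as single genes. Claudins, the seals of tight junctions, rose in 10 of 19 cases with 1 fall (median 0.89), for instance Cldn11 at 19.2, 9.96 and 20.6 against 2.43, 1.59 and 2.24 CPM (2.86). Ephrins and their receptors rose in 14 of 22 cases with 2 falls: Ephb2 was at 13.4, 13.4 and 13.6 against 0.841, 1.04 and 1.76 CPM (3.34), while Epha3 fell by 2.37. Semaphorins and plexins rose in 16 of 29 cases and fell in 7, Sema7a by 3.11. Of 28 tested integrins 8 were higher and 6 lower (median 0.14). These shares, 28.6% and 21.4%, stand against 20.9% and 21.9% of all tested genes. Factors of the transition between epithelium and mesenchyme went both ways, with 7 of 22 higher and 5 lower (31.8% and 22.7%, median 0.01). Of the mesenchymal ones Zeb1 and Twist2 fell by 1.45 and 3.63 while Zeb2 and Prrx2 rose by 2.49 and 2.98, and of the epithelial ones Grhl3 rose by 3.34 and Ovol1 fell by 0.61.

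Immediate early genes, which respond within minutes to growth factors or stress, rose in 20 of 28 cases with no fall (median 1.52). Fos was at 1340, 798 and 571 against 185, 81.2 and 73.4 CPM (2.87 ± 0.36), Egr1 at 1554, 1210 and 1044 against 342, 342 and 193 CPM (1.99 ± 0.20), and Nr4a1 at 213, 131 and 69.0 against 18.04, 10.8 and 10.6 CPM (3.26 ± 0.34). Their summed CPM was 8242, 5571 and 4346 in the heterozygous and 2198, 1691 and 1309 in the homozygous libraries, with no overlap between the groups and library 1 highest in each. In mTEC the same genes also had a higher mean at the low dose, Fos at 387 against 44.8 CPM and Egr1 at 420 against 82.6 CPM. The dose difference was not called different between cTEC and mTEC for Fos (interaction -0.27, adjusted p = 0.74), Egr1 (-0.38, 0.34), Jun (-0.71, 0.095) or Fosb (-1.04, 0.24).

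Genes of replication licensing and of ribosomes moved slightly, and these counts rest on single libraries. Of 18 tested MCM and licensing genes 13 rose (median 0.30). Leaving out homozygous library 1 left 3, and leaving out heterozygous library 2 or homozygous library 3 left 7. Cytosolic ribosomal protein genes rose in 33 of 78 cases (median 0.16), in 13 without homozygous library 3, in 17 without homozygous library 1, and in 63 without scaling factors. Zinc finger genes of the Zfp family rose in 136 of 338 cases and fell in 17 (median 0.21), or 224 and 10 without scaling factors.

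**Figure D4:**
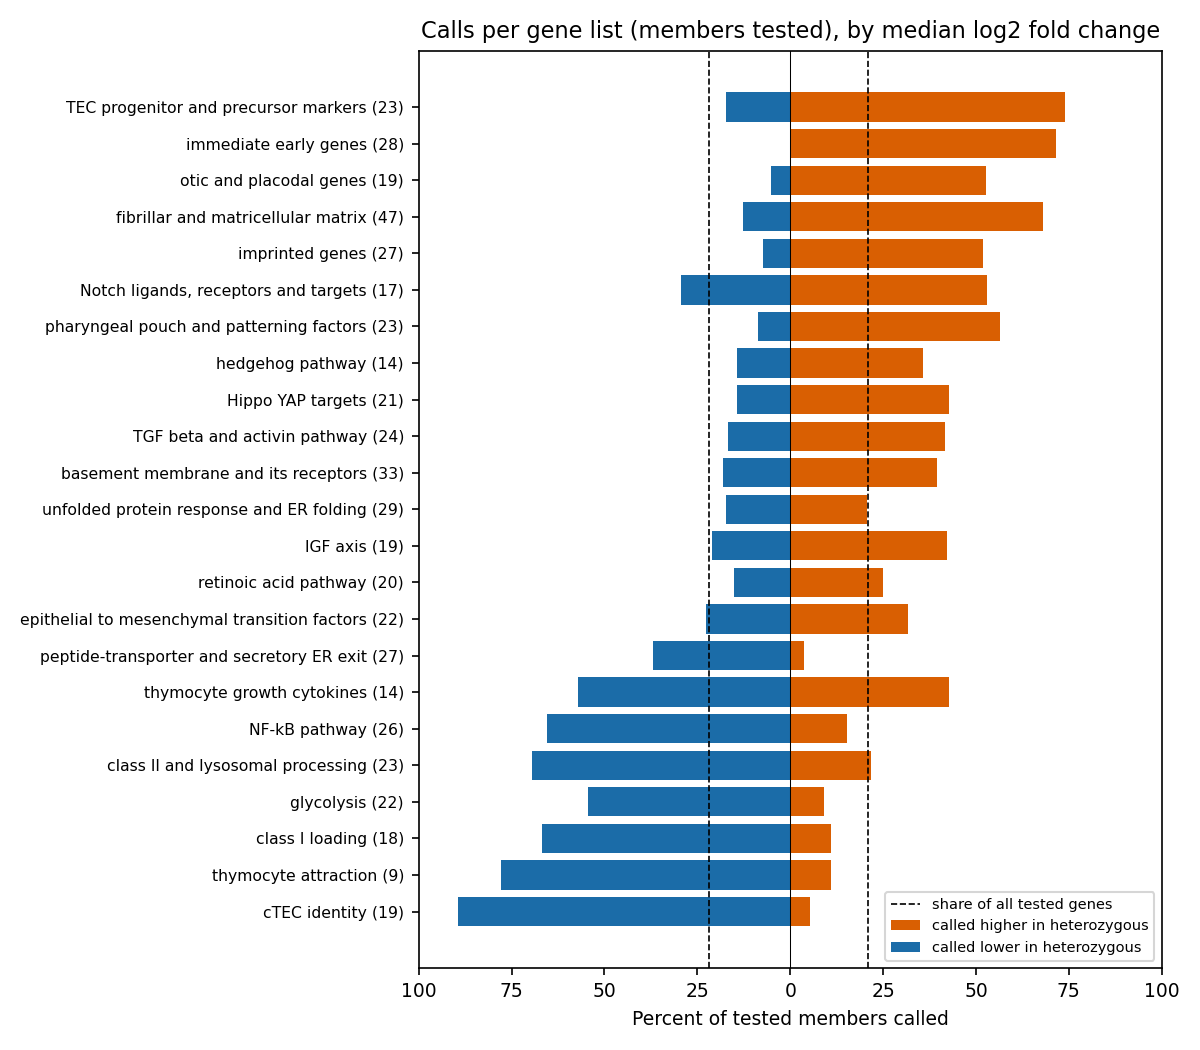
Percent of the tested members of 23 gene lists that were called higher (right) or lower (left) in heterozygous cTEC, with the number tested in brackets and the lists ordered by median log2 fold change. Dashed lines mark the shares of all tested genes, 20.9% higher and 21.9% lower. The cTEC identity list lies at the low end with 17 of 19 lower, and the progenitor list at the other end with 17 of 23 higher.

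Markers of other cells that a sort can carry were also counted. Thymocyte markers were lower in heterozygous cTEC for 14 of 15 genes and higher for Cd28, with a summed CPM of 53.9, 37.1 and 55.8 against 129.7, 90.02 and 137.3. Rag1, which recombines antigen receptor genes, was at 6.26, 3.06 and 2.57 against 35.5, 22.4 and 40.8 CPM (-3.18 ± 0.30). Summed markers of macrophages and dendritic cells were at 2.02 to 4.29 against 2.57 to 4.96 CPM, of B cells at 0.232 to 0.868 against 0.333 to 0.635 CPM and of endothelium at 1.88 to 2.83 against 4.33 to 5.47 CPM. Of 7 tested smooth muscle and pericyte markers 3 rose, Tagln (1.98), Cspg4 (0.90) and Des (0.73), and 1 fell. The latter was Myh11, at 62.7, 52.7 and 41.5 against 391, 409 and 420 CPM (-3.09 ± 0.12). Acta2 was not called. Sox10 and Erbb3, which Schwann cells share, rose.

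Some genes were counted in 1 genotype only. In heterozygous libraries 1483 genes of the table had no count, of which 486 were tested and 37 called. In homozygous libraries there were 1532, of which 368 were tested and 48 called. Of all tested genes 42.8% were called. Only 90 and 135 of these genes had counts in all 3 libraries of the other genotype. Btbd17 had 118 counts in heterozygous and 0 in homozygous libraries, at least 38.9-fold higher against a floor of 3 counts over the group. Igf2os, the antisense RNA of Igf2, had 98 counts (at least 32.3-fold), but the counting may not have used strand, so its reads cannot be told apart from those of Igf2. Lin7a, a cell polarity gene, had 85 counts (at least 28.0-fold). In the other direction Ptprr, a phosphatase, had 46 counts in homozygous libraries and 0 in heterozygous ones, at least 15.5-fold lower, Chi3l4, a chitinase-like gene, 40 (13.5-fold) and Hnf4a, a nuclear receptor of liver and gut, 36 (12.1-fold).

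Genes beside the endogenous Foxn1 locus (chr11:78357577-78386783, RefSeq GRCm38.p6) were examined because a BAC can carry neighbours of the gene it is built around. Of 28 tested genes within 300 kb, 9 were lower and 5 higher, against 21.9% and 20.9% of all tested genes. The adjacent gene Unc119, 8.41 kb away on the side of lower coordinates, was at 397, 365 and 405 CPM in heterozygous and 732, 750 and 674 CPM in homozygous libraries, a 2.03-fold difference (-1.02 ± 0.07, adjusted p = 9.01e-08). In mTEC it was at 115 against 146 CPM on average. On the other side, Slc13a2, a carboxylate transporter 10.5 kb away, was at 30.8, 31.8 and 27.8 against 114, 66.0 and 91.6 CPM (-1.72 ± 0.15). The predicted gene Gm11194, which overlaps it, was at 60.7, 69.8 and 53.3 against 219, 171 and 199 CPM (-1.81 ± 0.10), and the reads of these 2 genes may not be separable. Pigs, 14.8 kb away, was not called (0.00 ± 0.05), and Slc46a1, at 78.9 kb, fell by 0.53. Aldoc, 29.8 kb away, went the other way, at 33.9, 17.6 and 31.9 against 1.68, 1.22 and 0.999 CPM (4.28 ± 0.28). The sources used here do not give the span of the BAC, so which of these genes it carries was not tested. These genes were chosen after their values were seen.

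**Figure D5:**
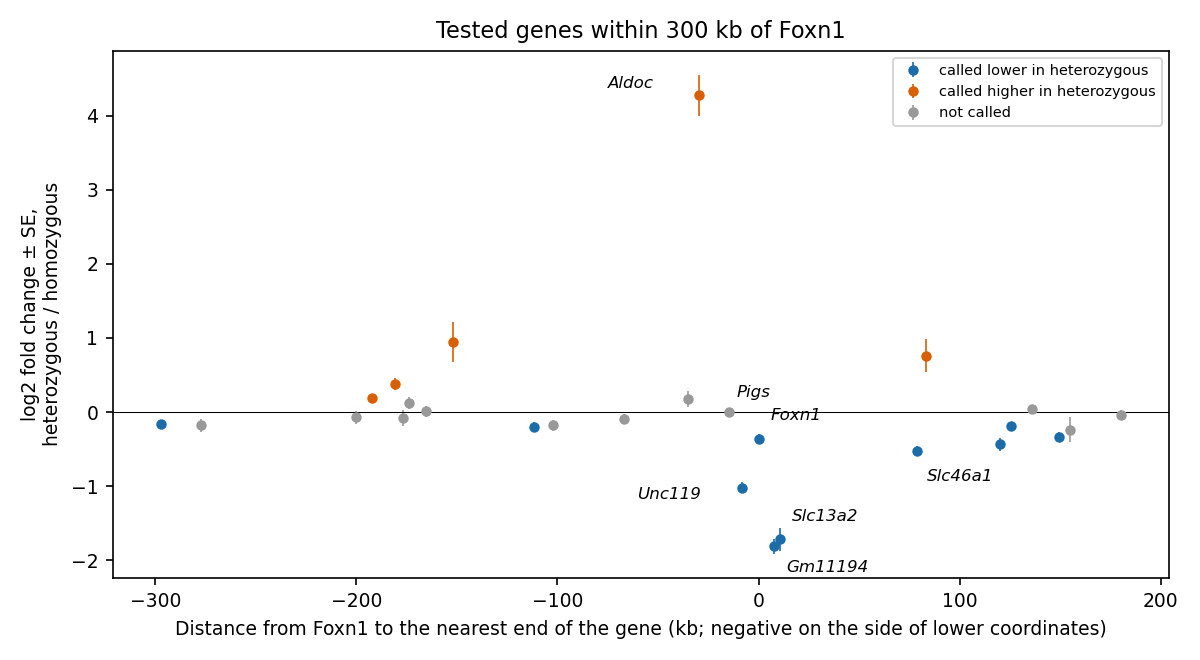
Fitted log2 fold change (heterozygous over homozygous cTEC) with its standard error for tested genes within 300 kb of Foxn1 that reached 0.5 CPM in either group, by distance in kb to the nearest end of the gene. Unc119, Gm11194 and Slc13a2, the nearest on either side, lie at -1.02, -1.81 and -1.72, Pigs lies at 0 and Aldoc lies alone at 4.28.

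Dose differences in cTEC were set against those in mTEC of the same genotypes by a test of the interaction, which was called for 8162 genes (42.5% of those tested). Ccl25 was at 5.30 CPM in heterozygous and 96.3 CPM in homozygous mTEC, and its fall in cTEC was larger by 3.41 log2 (interaction adjusted p = 4.2e-07). Prss16 was at 34.6 and 137 CPM in mTEC (interaction -2.95), and Dll4 at 20.2 and 28.9 CPM (-1.82). The interaction for Psmb11, at 4.34 and 21.3 CPM in mTEC, was smaller (-1.11, adjusted p = 0.026). Foxn1 was the exception in direction, with 495 CPM in heterozygous and 318 CPM in homozygous mTEC (interaction -1.02). Of the 8225 genes called in cTEC, 5014 (61.0%) also had a called interaction, a share that rests partly on the same cTEC libraries.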

How the data were processed

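Whole-number read counts per gene, for 38720 genes by symbol, were used as deposited by the authors. Per the submitters' processing notes reads were handled with Trimmomatic 0.32, TopHat2 2.0.10, featureCounts, Picard 1.105, SAMtools, Bowtie2 2.2.3, MACS2 2.0.10 and BWA 0.7.5 in no stated order, on builds mm10 and GRCm38. The sources used here give neither the gene annotation nor the strand setting. Of the 20 columns, 10 belong to other experiments and were not used.

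The 10 transgenic libraries (3 and 3 of cTEC, 2 and 2 of mTEC, heterozygous and homozygous) were fitted together in edgeR 4.0.16 (R 4.3.3; quasi-likelihood test, TMM, filterByExpr with minimum count 10 and minimum total 15, Benjamini-Hochberg, two-sided, threshold 0.05). CPM uses raw totals. Fitted log2 fold changes carry a prior count of 0.125. Lists were described by counts and medians, with no test. Interaction tests compared the dose difference in cTEC with that in mTEC. Precision is limited by 3 libraries a group, and floors of 3 counts cover counting error only. Promoters were the first window per gene in RefSeq (GRCm38.p6), matched for 18747 genes.

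Named genes were 8 fixed genes, the 15 largest rises and falls by fold (mean CPM 2 or more, groups not overlapping), the 12 largest by CPM difference, the 3 highest with 0 counts in the other genotype, and the 3 of smallest adjusted p per list and direction. Predicted genes, ribosomal pseudogenes, mitochondrially encoded genes and receptor segments were left out. Some genes that meet these criteria are not reported here. Other named genes, among them proteasome, Hox, protocadherin and claudin members and the neighbours of Foxn1, were chosen after their values were seen. Members and lists were chosen with earlier results of these data known. Alternatives were other scalings, DESeq2 1.42.0, limma-voom (limma 3.58.1), other filters, the 6 cTEC libraries alone, a replicate block and leaving out each library; leaving out libraries and scaling for lists were added after seeing the data. The test was tried on simulated data for the cTEC comparison (15273 genes). There it recovered 76.1% of 1.5-fold, 97.0% of 2-fold and 100% of 4-fold changes, with 7.61% false among the called. Only 67, 67 and 66 genes were changed at these sizes, as many up as down and none of low count. All groups otherwise shared the same mean per gene. The simulation therefore does not check the scaling, genes of low count or a comparison with 42.8% of genes called.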

Additional observations from a re-analysis of the deposited data

Results flagged for a closer look

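For all 8 genes fixed for the comparison, the dose difference differed between cTEC and mTEC by the edgeR interaction test. The difference of the log2 fold changes, cTEC minus mTEC, was -1.02 for Foxn1, -1.11 for Psmb11, -1.82 for Dll4, -3.41 for Ccl25, -1.32 for Cxcl12, -2.95 for Prss16, -1.90 for Cd83 and -1.72 for Ctsl. For Foxn1 the groups also moved in opposite directions, down in cTEC and up in mTEC at the low dose. The mTEC groups hold 2 libraries each.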

How the results depend on the processing

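No called gene reversed its direction among calls in any alternative run, and 83.7 to 99.8% of calls were kept with another scaling, tool, filter or fit and 84.7 to 89.2% with 1 cTEC library left out. Leaving out each library gave 3366 to 3865 higher, 3583 to 3916 lower and 7438 to 8175 interaction calls, and 1458 to 1573 and 898 to 1023 genes at least 2-fold higher and lower. Over all tested genes, deviations of same-numbered libraries from their group means correlated at 0.018, 0.018 and 0.015. Those of differently numbered libraries correlated at -0.053 to 0.038. Immediate early genes fell from library 1 to library 3 in both groups, so these correlations do not show that the numbers are unpaired. A replicate block by number gave 3934 higher and 4163 lower genes, 1536 and 1003 at least 2-fold, and 8025 interaction calls. Of 255 named genes, 254 were called in the main fit, and many were picked for a large difference or a small adjusted p. Keeping their calls is therefore a weak check. Of their 3820 values under the alternatives, 3753 kept the call, 66 lost it, 1 gained it and 0 reversed. The gene that gained it was Pigs, without scaling factors. Without scaling factors 3 Notch and 3 basement membrane genes fell, and 4 class I loading and 8 retinoid genes rose. GACGC shares in the 250 bases before the start only were 39.2% for lower, 31.4% for higher and 31.9% for not called genes. For genes at least 2-fold lower and higher they were 33.5% and 32.3% in the full window and 25.7% and 26.4% in the shorter one, where the order turned. TGANTCA was in 7.39% and 6.27% of those at least 2-fold lower and higher in the full window, and in 6.02% of not called genes in the shorter window. TGACNNNGC was in 12.1%, 11.99% and 11.4% in the shorter window, and in 12.97% of genes at least 2-fold lower in the full window. The cause of these shifts was not tested beyond the shorter window and smaller sets themselves. The split of the GACGC shares by CG dinucleotides is a description only, since fewer than 80% of tested genes had a promoter.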
